A study of Mus musculus with 22 samples.

Results

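The mitochondrial ribosomal protein genes were taken as all mouse genes whose symbol starts with Mrpl or Mrps followed by a digit, pseudogenes left out. The annotation holds 78 such genes. Of these, 68 were among the 9326 genes of the megakaryocyte tables, 69 were among the 23930 rows of the platelet table, 65 were in both and 72 were in either. Membership rests on the symbol alone and used no measured value. All 69 platelet members were among the 12611 platelet genes with a listed adjusted p. The 6 genes with a row in neither kind of table were Mrpl23, Mrpl27, Mrpl33, Mrpl53, Mrps34 and Mrps36, and the product of the last is a subunit of the oxoglutarate dehydrogenase complex, not of the ribosome. Mrpl58 had no platelet row under that symbol. Its older symbol, Ict1, had one and was not counted as a member.

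The mitochondrial ribosome, or mitoribosome, translates the few proteins encoded by mitochondrial DNA, all of them subunits of the oxidative phosphorylation complexes. Its RNAs come from mitochondrial DNA, whereas all its proteins are encoded in the nucleus, made in the cytosol and imported. The small subunit reads the mRNA, and the large subunit joins the amino acids and is held at the inner membrane, where the products are inserted. Platelets have no nucleus but carry mitochondria, and their RNA is passed on from the megakaryocyte that sheds them.

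The 22 mouse samples form 7 groups and belong to a study of SRSF3, an RNA-binding splicing factor, in megakaryocyte maturation and platelet formation. Bone marrow megakaryocytes from Pf4Cre-Srsf3fl/fl adults, called knockout here, were sorted on CD41 and DNA content at 16N and above (16N-plus) and at 8N, with 3 samples in each gate. Cre-negative control megakaryocytes were sorted in the same way, with 3 samples in each gate. Washed blood platelets came from 4 knockout samples, 3 Cre-negative control samples and 3 wild type samples. Cre in these mice is driven by the platelet factor 4 promoter, which is active in the megakaryocyte lineage. Only knockout mice carry Cre, so the transgene and the loss of Srsf3 cannot be told apart. The strain label is C57BL/6 for every megakaryocyte sample but counts upward from C57BL/7 to C57BL/16 over the 10 platelet samples, and it was not used. No label ties a group's samples to separate animals, so p-values measure the spread between samples, which may be technical.

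The values are the authors' own comparisons across all genes, with none per library, so no level per sample can be given and the depth per library is unknown. Fold changes are relative to the rest of each library: fewer cells of a type and less RNA per cell cannot be told apart. The tables do not state which group is on top. The direction used, knockout over control and 16N-plus over 8N, was inferred from the values, and the platelet direction from its positive relation to the megakaryocyte tables (Spearman correlation of 0.32 over 8163 genes in the authors' deposited tables). On this reading Tubb1, a tubulin of maturing megakaryocytes, was at 2.26 in 16N-plus over 8N control cells and at -2.95 in knockout over control cells with both gates combined in the authors' deposited tables. If a table runs the other way, every sign given from it turns. Srsf3 does not settle it, since the authors' deposited table that combines both gates lists Srsf3 at 0.38 on the log2 scale with an edgeR adjusted p of 0.28, and no platelet row carries that symbol. All 12 megakaryocyte and platelet markers looked for had rows in the megakaryocyte tables, and so did all 10 macrophage and all 12 neutrophil markers.

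Which mitoribosome genes differ in the RNA carried by platelets from knockout mice was the first question. Most were higher. In the authors' deposited table, 47 of 69 members were higher in knockout platelets and 4 were lower at an adjusted p under 0.05 (DESeq2). The background was high in the authors' deposited table, where 28.2% of all tested genes were higher and 25% were lower. The members' share called higher, 68.1%, was above that background, and their median log2 fold change was 1.74 in the authors' deposited table, against 0.02 over all tested genes. The deposited result does not state which platelet controls entered it.

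The highest member was Mrpl54 (ENSMUSG00000034932, chromosome 10, 81264713 to 81266934, minus strand, GRCm38), a large subunit protein with no bacterial counterpart. In the authors' deposited table, Mrpl54 stood 4.24 higher in knockout platelets on the log2 scale (SE 0.29, DESeq2 adjusted p = 1.01e-47), an 18.9-fold difference. Among the 47 genes called higher, the log2 fold change was at least 1 for all 47 in the authors' deposited table, at least 2 for 32, at least 3 for 14 and at least 4 for 3. The other genes above 4 were Mrps7 at 4.09 (SE 0.91) and Mrps10 at 4.09 (SE 0.44) per the authors' deposited table. Mrpl28, another large subunit protein, completes the 12 highest members at 3.10 (SE 0.41) per the authors' deposited table. Mrps7 rests on little signal, with a mean normalised count of 4.85 over all platelet libraries in the authors' deposited table, against 404 for Mrpl54.

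**Figure D1:**
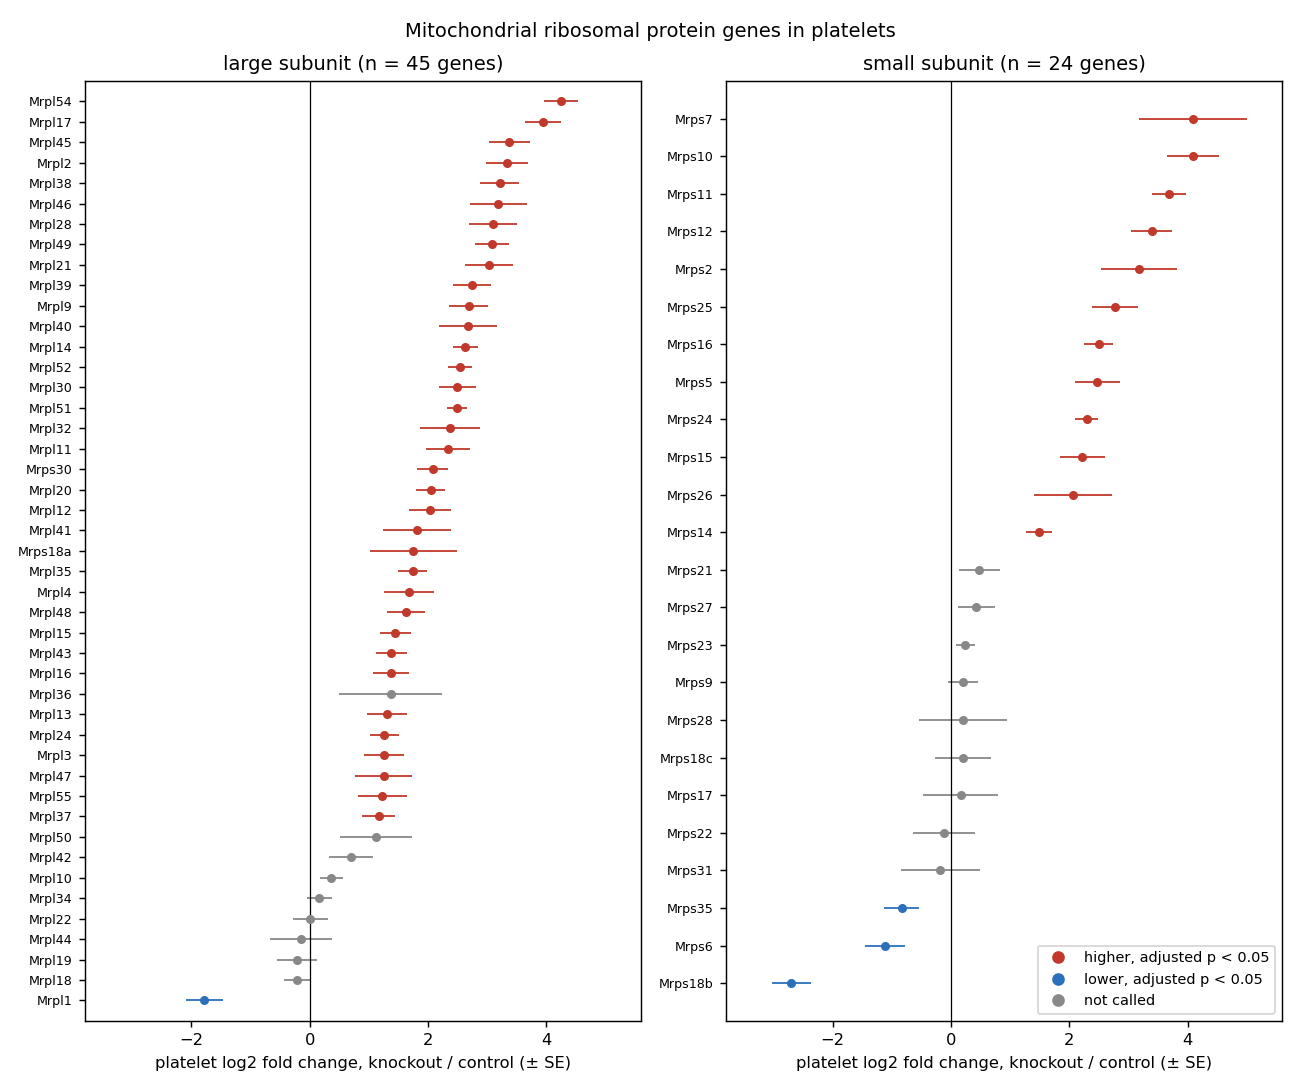
Platelet log2 fold change, knockout over control, with its SE, for the 69 mitochondrial ribosomal protein genes in the authors' deposited table, split by subunit (Mrps30 and Mrps18a are drawn with the large subunit, where their proteins sit). Red points were higher, blue points lower and grey points not called at an adjusted p under 0.05. Most points lie right of 0, up to 4.24 for Mrpl54, and the blue points are Mrpl1, Mrps35, Mrps6 and Mrps18b.

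Both subunits took part. Of 45 large subunit genes, 35 were higher and 1 was lower in knockout platelets in the authors' deposited table, with a median log2 fold change of 1.75. Of 24 small subunit genes, 12 were higher and 3 were lower in the authors' deposited table, with a median of 0.98. Whether the subunits differ was not tested. Members with a bacterial counterpart and members found only in mitochondrial ribosomes were called higher in 30 of 44 and 16 of 24 cases in the authors' deposited table, with Mrpl55 assigned to neither.

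The small subunit genes around the decoding centre and the path of the mRNA were all higher. These were Mrps12, whose bacterial counterpart S12 helps to check codon and anticodon pairing, Mrps5 and Mrps24 near the mRNA entry, and Mrps2, Mrps7 and Mrps11 on the exit side. All 6 were called higher in the authors' deposited table, with log2 fold changes between 2.29 and 4.09 and a median of 3.28. Mrps11 was higher by 3.68 (SE 0.29) and Mrps12 by 3.39 (SE 0.35) on the log2 scale in the authors' deposited table. Mrps24 was higher by 2.29 (SE 0.19) and Mrps5 by 2.47 (SE 0.38) per the authors' deposited table. Mrps2 was higher, at a log2 fold change of 3.18 (SE 0.65) per the authors' deposited table.

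In the large subunit, all 3 genes measured on the peptidyl transferase side, where peptide bonds form, were higher. Mrpl2 was higher by 3.34 (SE 0.35), Mrpl16 by 1.37 (SE 0.30) and Mrpl3 by 1.26 (SE 0.33) on the log2 scale in the authors' deposited table. Of 6 genes for proteins around the exit tunnel, through which the new chain leaves toward the inner membrane, 4 were higher in the authors' deposited table. Mrpl17 was higher, at a log2 fold change of 3.94 (SE 0.31), and Mrpl45, which helps to hold the ribosome at the membrane, at 3.37 (SE 0.35) per the authors' deposited table. Mrpl39 was higher by 2.74 (SE 0.33) and Mrpl24 by 1.26 (SE 0.24) per the authors' deposited table. The other two, Mrpl22 and Mrpl44, had log2 fold changes of 0.01 (SE 0.30) and -0.15 (SE 0.53) per the authors' deposited table and were not called.

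The central protuberance, the crest of the large subunit facing the small one, had 5 of 6 genes higher in the authors' deposited table. Mrpl38 was higher by 3.21 (SE 0.32), Mrpl46 by 3.19 (SE 0.48) and Mrpl40 by 2.67 (SE 0.49) on the log2 scale in the authors' deposited table. Mrpl52 was higher by 2.55 (SE 0.20) and Mrpl48 by 1.62 (SE 0.32) per the authors' deposited table. Mrpl18, the gene of this group with the most signal, had a log2 fold change of -0.22 (SE 0.22) per the authors' deposited table and was not called. Mrpl58, a further protein of this site that also releases stalled chains, was measured under its older symbol Ict1 at a log2 fold change of 4.00 (SE 0.25) per the authors' deposited table.

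The stalks that guide translation factors and spent tRNAs were mixed. In the L12 stalk, which recruits the elongation factors, Mrpl11 was higher, at a log2 fold change of 2.33 (SE 0.37), and Mrpl12 at 2.03 (SE 0.36) per the authors' deposited table. Mrpl10, the base of that stalk, had a log2 fold change of 0.37 (SE 0.19) per the authors' deposited table and was not called. Mrpl1, the protein of the opposite stalk at the exit site for spent tRNA, was lower, at a log2 fold change of -1.78 (SE 0.31, DESeq2 adjusted p = 3.93e-08) per the authors' deposited table. It was the one large subunit gene called lower.

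The 3 genes derived from one bacterial S18 ancestor went different ways. The protein of Mrps18a sits in the large subunit, while those of Mrps18b and Mrps18c sit in the small one. Mrps18a was higher, at a log2 fold change of 1.75 (SE 0.73, DESeq2 adjusted p = 0.032) per the authors' deposited table. Mrps18b (chromosome 17, 35910379 to 35916389, minus strand, GRCm38) was lower, at -2.70 (SE 0.33, DESeq2 adjusted p = 2.35e-15), the lowest value of any member in the authors' deposited table. Mrps18c had a log2 fold change of 0.20 (SE 0.47) per the authors' deposited table and was not called. Mrps18b also had the second highest signal of the members, with a mean normalised count of 546 in the authors' deposited table, while Mrps18a and Mrps18c were at 8.94 and 9.75. The remaining genes called lower were Mrps6 at a log2 fold change of -1.12 (SE 0.33) and Mrps35 at -0.83 (SE 0.30) per the authors' deposited table, both of the small subunit.

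The 18 members not called had 13 log2 fold changes above 0 and 5 below in the authors' deposited table. The share called differed with signal. Among 17 members with a mean normalised count under 20, the median SE was 0.61 in the authors' deposited table, with 9 higher, 0 lower and 8 not called. Among 31 members from 20 to 100, the median SE was 0.34, and 24 were higher, 2 lower and 5 not called in the authors' deposited table. Among 21 members at 100 or more, the median SE was 0.24, and 14 were higher, 2 lower and 5 not called in the authors' deposited table. Across the 69 members, the log2 fold change had a Spearman correlation of 0.08 with the mean normalised count and of -0.03 with exon length. Those members share the same libraries, and the values are a description.

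Genes of the same machinery were set beside the members from lists. Of 70 nuclear genes for oxidative phosphorylation subunits, which the mitoribosome's products join, 56 were higher and 3 lower in knockout platelets in the authors' deposited table, with a median of 1.92. Ndufv1, a complex I subunit that binds NADH, was the highest at 4.80 (SE 0.35) per the authors' deposited table. Of 20 cytosolic ribosomal protein genes tested, 16 were higher and 0 lower in the authors' deposited table, with a median of 2.75. Mitoribosome proteins that do not carry an Mrp symbol gave 3 higher and 1 lower of 4 in the authors' deposited table: Dap3 was higher by 2.21 (SE 0.21), and Ptcd3 was lower at -1.39 (SE 0.30).

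Factors that build and serve the mitoribosome were less uniform. Of 22 assembly genes, 11 were higher and 2 lower in the authors' deposited table, with a median of 1.12. Mpv17l2 was higher, at a log2 fold change of 4.75 (SE 0.35), and the GTPase Mtg1, which acts late on the large subunit, at 3.76 (SE 0.41) per the authors' deposited table. Eral1, a chaperone of the small subunit RNA, was higher by 3.24 (SE 0.36) per the authors' deposited table. The list of 14 translation factors gave 4 higher and 4 lower in the authors' deposited table, with a median of -0.12. That is 28.6% each way, near the 28.2% higher and 25% lower over all tested genes. Oxa1l, a membrane insertase counted among the 14 though not itself a translation factor, was higher by 3.09 (SE 0.32) per the authors' deposited table. The initiation factor Mtif2 was lower at -2.42 (SE 0.21) and the recycling factor Mrrf at -1.72 (SE 0.21) per the authors' deposited table.

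Mitochondrial tRNA synthetases were 7 higher and 4 lower of 16 in the authors' deposited table, with Aars2 at 5.06 (SE 0.88) and Wars2 at -2.84 (SE 0.21). Of these 16, 43.8% were higher and 25% lower, beside 28.2% and 25% of all tested genes. For transcription and processing of mitochondrial RNA, 3 of 9 genes were higher and 2 lower in the authors' deposited table. These shares, 33.3% and 22.2%, are near those of all tested genes. The nuclease Elac2 was higher by 4.38 (SE 0.40), and Tfam, which packages and transcribes mitochondrial DNA, was lower at -1.60 (SE 0.32) per the authors' deposited table. Of 8 regulators of mitochondrial biogenesis, 0 were higher and 2 lower in the authors' deposited table: Max, the partner of Myc, at -4.65 (SE 0.29) and Gabpb1, a GABP subunit, at -0.96 (SE 0.16). The 2 lower regulators are 25% of their list, like the share of all tested genes called lower. The 13 genes of mitochondrial DNA looked for had no platelet row under the symbols used, so they were not analysed in platelets.

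**Figure D2:**
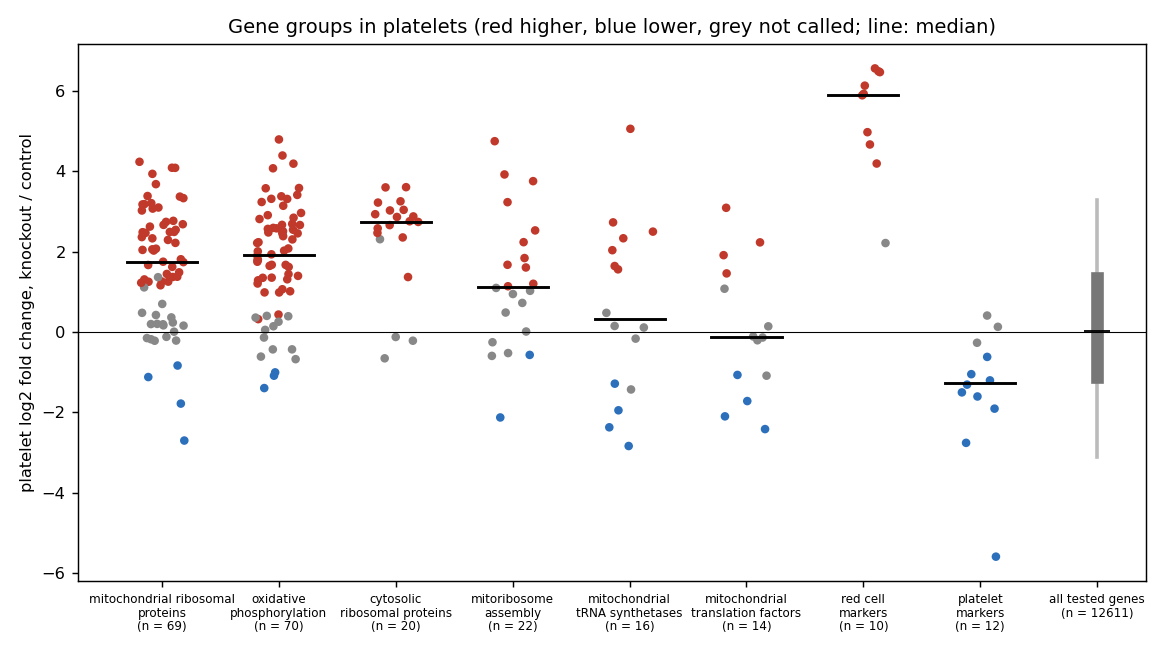
Platelet log2 fold change, knockout over control, for each tested gene of 8 lists in the authors' deposited table (red higher, blue lower, grey not called, black line the median). The bar at the right spans the quartiles (thick) and the 5th to 95th percentile (thin) of all 12611 tested genes, with a tick at their median of 0.02. The mitochondrial ribosomal protein genes centre on 1.74, near the oxidative phosphorylation genes at 1.92, while red cell markers centre on 5.91 and platelet markers on -1.26.

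In platelets, markers of red cells moved with these genes. Of 15 red cell markers 10 had platelet rows. Of these, 9 were higher and 0 lower in knockout platelets per the authors' deposited table, with a median log2 fold change of 5.91. Alas2, the first enzyme of red cell heme synthesis, had a mean normalised count of 66052 over all platelet libraries in the authors' deposited table and was higher by 6.57 (SE 0.96). Among the 10 tested red cell markers the lowest mean normalised count in the authors' deposited table was 1.75, for the erythroid transcription factor Klf1. Of 12 platelet markers 0 were higher and 9 lower in the authors' deposited table, with a median of -1.26, and the tubulin Tubb1 was lowest at -5.59 (SE 0.23). Of 8 macrophage markers 1 was higher and 3 were lower in the authors' deposited table, and of 9 neutrophil markers 0 and 1. The part of red cell RNA in the members' platelet values was not tested, and the summed level of the markers in each group is unknown.

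In megakaryocytes the question was whether the knockout changes these genes before platelets are shed. No member passed the test. In the authors' deposited tables, 0 of 68 members were called in 16N-plus cells, 0 in 8N cells and 0 with both gates combined (edgeR quasi-likelihood test, adjusted p under 0.05). Of all genes, 3.51% were called in 16N-plus cells, 1.44% in 8N cells and 4.19% combined in the authors' deposited tables. At an unadjusted p under 0.05 there were 5, 3 and 8 members in that order, all higher in knockout cells in the authors' deposited tables. The share of all genes higher at that unadjusted p was 5.54%, 3.21% and 6.23% in the authors' deposited tables. The combined comparison uses the same libraries as the other two. Markers of megakaryocytes and platelets were lower in knockout cells in the same comparisons, with 6 of 12 called lower in 16N-plus cells, 5 in 8N cells and 7 combined in the authors' deposited tables, and a combined median of -0.51. Of 12 neutrophil markers, 2 were higher in 16N-plus cells, 4 were lower in 8N cells and 0 were called combined in the authors' deposited tables, and no macrophage marker was called. Of 11 red cell markers with a row, 0 were higher and 1 lower in each comparison, with a combined median of -0.28. Of 4 B cell markers with a row, 0 were called in 16N-plus cells, 2 were lower in 8N cells and 1 was lower combined. Of 2 T cell markers with a row, 1 was higher in 8N cells and 0 were called in the other comparisons. The part of these shifts in the members' values was not tested.

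Fold changes of the members were small and mostly above 0. The median log2 fold change was 0.11 in 16N-plus cells, 0.13 in 8N cells and 0.13 combined in the authors' deposited tables, against 0.07, 0.01 and 0.05 over all genes. Above 0 were 48, 55 and 56 of 68 members in the authors' deposited tables, beside 60.9%, 51.7% and 60.1% of all genes. Across the gates, 40 members were above 0 in both, 5 were below 0 in both and 23 had opposite signs in the authors' deposited tables. The largest combined value was that of Mrpl28, a large subunit protein, at 0.44 (SE 0.18, edgeR p = 0.0138 unadjusted, adjusted p = 0.18) per the authors' deposited table. Mrpl44, a tunnel protein related to ribonuclease III, had the smallest p, with a log2 fold change of 0.25 (SE 0.10, edgeR p = 0.0125 unadjusted, adjusted p = 0.17) per the authors' deposited table. Mrps18a followed at 0.24 (SE 0.10), Mrpl49 at 0.34 (SE 0.14), Mrpl35 at 0.32 (SE 0.15) and Mrpl20 at 0.32 (SE 0.15) per the authors' deposited table.

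Within single gates, Mrpl44 at 0.48 (SE 0.18) and Mrps18a at 0.44 (SE 0.17) had the smallest p in 16N-plus cells in the authors' deposited table, with edgeR adjusted p of 0.15 and 0.18. Mrpl49, Mrpl43, Mrpl28 and Mrps22 came next in 16N-plus cells, with log2 fold changes between 0.46 and 0.55 in the authors' deposited table. In 8N cells, Mrpl20 at 0.48 (SE 0.19) and the stalk protein Mrpl12 at 0.50 (SE 0.24) had the smallest p, with edgeR adjusted p of 0.32 and 0.53 in the authors' deposited table. Mrpl54, Mrpl52, Mrpl38 and Mrps6 came next in 8N cells, with log2 fold changes between 0.30 and 0.37 in the authors' deposited table. Mrps18c stood at 0.15 in 16N-plus cells and 0.34 in 8N cells, and Mrps18a at 0.03 in 8N cells in the authors' deposited tables, and Mrps18b has no megakaryocyte row. Among the other lists, 11 of 81 cytosolic ribosomal protein genes were higher and 0 lower combined, with a median of 0.40 in the authors' deposited table. Of 71 oxidative phosphorylation genes, 2 were higher and 0 lower in the authors' deposited table, with a median of 0.19. Over all genes of that combined comparison, 0.622% were higher and 3.57% lower. Among 15 tRNA synthetases, Lars2 was higher by 0.84 (SE 0.18) per the authors' deposited table, and the others were not called.

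**Figure D3:**
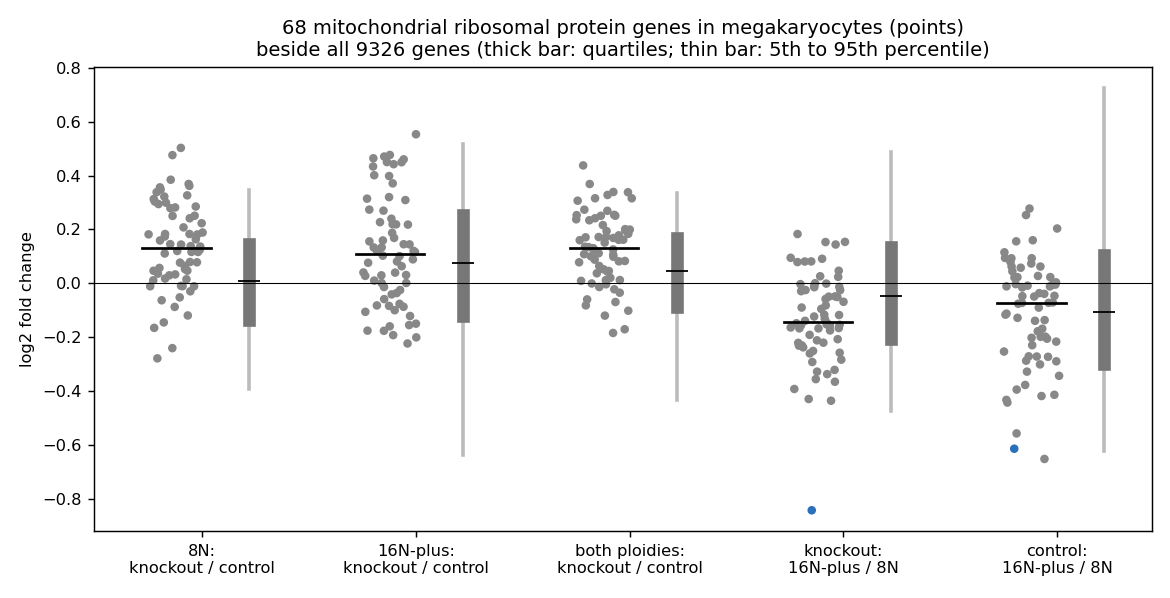
Log2 fold changes of the 68 mitochondrial ribosomal protein genes in the authors' 5 megakaryocyte tables (grey points not called, blue points lower at an adjusted p under 0.05, black line the median). Beside each set, a bar spans the quartiles and the 5th to 95th percentile of all 9326 genes. In the genotype comparisons no point is coloured and the medians lie between 0.11 and 0.13, and each ploidy comparison has 1 blue point, Mrpl12 in knockout and Mrpl44 in control cells.

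The comparison of 16N-plus with 8N cells was made in each genotype. In knockout cells 1 of 68 members was lower and 0 higher in 16N-plus cells in the authors' deposited table, beside 3.31% of all genes called and 1.21% lower, and the median was -0.14, against -0.05 over all genes. That gene was Mrpl12, at a log2 fold change of -0.84 (SE 0.26, edgeR adjusted p = 0.040) per the authors' deposited table. The next smallest p-values in knockout cells belonged to Mrps17 at -0.43 (SE 0.20), Mrpl57 at -0.44 (SE 0.21) and Mrpl15 at -0.39 (SE 0.20) per the authors' deposited table. Mrps21 and Mrps10 followed at -0.22 and -0.34 in the authors' deposited table. In control cells 1 of 68 was lower and 0 higher in the authors' deposited table, beside 7.25% of all genes called and 2.51% lower, with a median of -0.07, against -0.11 over all genes. That gene was Mrpl44, at -0.61 (SE 0.20, edgeR adjusted p = 0.031) per the authors' deposited table. Mrps7 at -0.65 (SE 0.26), Mrpl43 at -0.56 (SE 0.23) and Mrps18a at -0.42 (SE 0.17) followed in the authors' deposited table, then Mrpl49 at -0.39 and Mrps11 at -0.43, and were not called. In knockout cells Mrps18a was at -0.01 in the authors' deposited table, and Mrps18c was at -0.28 in knockout and -0.09 in control cells. After fold changes were centred on the median gene, Mrpl12 was at -0.80 (adjusted p = 0.055) and Mrpl44 at -0.51 (adjusted p = 0.099), and neither was called.

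Cell type markers differed in the same ploidy comparisons. Of 10 macrophage markers, 5 were lower in 16N-plus knockout cells and 8 in 16N-plus control cells in the authors' deposited tables, with medians of -0.77 and -1.21. Of 12 neutrophil markers, 1 was higher in knockout cells and 6 were lower in control cells in the authors' deposited tables. In 16N-plus knockout cells 2 of 4 B cell markers were higher and 2 of 2 T cell markers lower. In control cells 0 of either list were called, and 0 of 11 red cell markers were called in either genotype. Of 12 megakaryocyte and platelet markers, 8 were higher in knockout and 10 in control cells in the authors' deposited tables, with medians of 0.68 and 0.94. The part of these shifts in the Mrpl12 and Mrpl44 values, and in those of the mitochondrial transcripts, was not tested.

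Transcripts of the mitochondrial genome were higher at the larger ploidy. All 7 mitochondrially encoded genes with a row were higher in 16N-plus cells in both genotypes in the authors' deposited tables, beside 2.1% of all genes higher in knockout and 4.74% in control cells. Their median log2 fold change was 1.59 in knockout cells and 2.56 in control cells in the authors' deposited tables.

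Whether the knockout effect on a member differs between 16N-plus and 8N cells was tested from the difference of the genotype fold changes. By a normal approximation, with p-values adjusted over 9305 genes (Benjamini-Hochberg), 0 of 68 members passed, beside 0.731% of all genes, and 1 member had an unadjusted p under 0.05, beside 7.85% of all genes. That member was Mrpl43, with a difference of 0.58 on the log2 scale (SE 0.30, adjusted p = 0.63). Mrpl12 had the lowest difference, at -0.70 (SE 0.36, adjusted p = 0.64), followed in order of p by Mrps18a at 0.41 (SE 0.23), Mrps21 at -0.27 (SE 0.17), Mrpl54 at -0.44 (SE 0.29) and Mrpl14 at -0.25 (SE 0.18). Mrps18c had a difference of -0.19 (SE 0.28). These SEs combine the SEs of both gates at any F, and a small F makes an SE unstable. For Mrpl14 the 16N-plus F was 0.004, which gave an SE of 0.02 in that gate. Its place in this order rests on that SE.

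Set side by side, the platelet and megakaryocyte values of the members had different sizes. Of 45 members called higher in platelets and present in both kinds of table, 37 had a combined megakaryocyte log2 fold change above 0. The other 8 were below 0 in the authors' deposited tables. Above 0 in that comparison were 82.4% of all 68 members and 60.1% of all genes, so the 37 are near the share of members in general. Over those 45 genes the median was 2.49 in platelets and 0.15 in megakaryocytes in the authors' deposited tables. Mrpl54 was at 4.24 in platelets and 0.13 in megakaryocytes in the authors' deposited tables, and Mrps10 at 4.09 and -0.03. Over all 65 shared members the Spearman correlation was 0.04, a description across genes of the same libraries. The platelet libraries were amplicon panels and the megakaryocyte libraries stranded total RNA, and the difference between the 2 cell types was not tested.

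**Figure D4:**
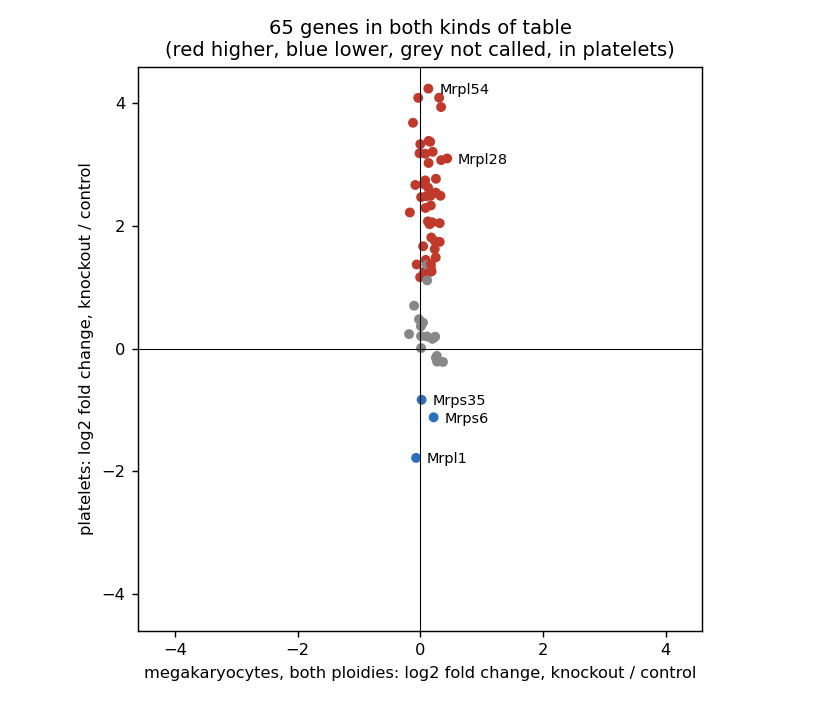
Platelet log2 fold change (vertical) against combined megakaryocyte log2 fold change (horizontal), both knockout over control and on the same scale, for the 65 mitochondrial ribosomal protein genes in both kinds of table. Red points were higher, blue points lower and grey points not called in platelets. The points form a tall narrow column, since megakaryocyte values stay within 0.44 of 0 while platelet values reach 4.24.

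Levels of the members in megakaryocytes were compared per length. The authors' deposited tables give a mean log2 CPM over all megakaryocyte libraries. From it the log2 of the exon length in kilobases, over all annotated transcripts of a gene, was subtracted here. The result ran from 1.91 for Mrps10 to 6.31 for Mrpl18, with a median of 4.15. That length can exceed the length of the transcript expressed, and the values depend on it. The members highest in platelet fold change did not share one value on this scale: Mrpl54 was at 5.52 and Mrpl17, with 7605 annotated exon bases, at 3.85. The part of annotated length in that difference was not tested. Per gene, the members had a median mean log2 CPM of 5.46, against 6.04 for all genes in the authors' deposited tables.

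The members lie on 17 chromosomes, with 11 genes on chromosome 11 and 8 on chromosome 17. Many start beside another gene: 25 members have a protein-coding gene on the opposite strand starting within 500 bases. Counted once each, 19 such pairs had both genes tested in platelets, with the same sign in 12 and opposite signs in 7 in the authors' deposited table. Both genes were higher in 6 pairs, and in 6 more the member was higher and its neighbour was not called in the authors' deposited table. Mrpl46 and Mrps11 form a pair of members, and both were higher in knockout platelets, at 3.19 and 3.68 on the log2 scale in the authors' deposited table. Mrpl54 and its neighbour Apba3 were at 4.24 and 3.59 in the authors' deposited table, and Mrps12 and the serine tRNA synthetase gene Sars2 at 3.39 and 2.50. Mrps7 and its neighbour Gga3, which was not called, were at 4.09 and -0.34 in the authors' deposited table. Mrpl21 and Ighmbp2 were at 3.03 and -0.57 in the authors' deposited table, and Mrpl30 and Mitd1 at 2.49 and -0.93, with neither neighbour called. Mrps18b and Ppp1r10 were both lower, at -2.70 and -0.71 in the authors' deposited table. Exon bases are shared with another protein-coding gene by 23 members, in 20 cases on the opposite strand and in 4 on the same strand. Mrpl27, Mrpl53 and Mrps34 are among the 23 but have no row in either kind of table. On the same strand reads may be split or mixed. On opposite strands this depends on whether counting used the strand, which is not stated, though the megakaryocyte libraries were stranded. Nr2c2, on the opposite strand, overlaps 69.8% of the exon bases of Mrps25.

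Promoters of the members were searched for motifs of factors known to drive nuclear genes of mitochondria. These were NRF1 (GCGC, any base, then TGCGC), the ETS family to which GABP belongs (CCGGAAG) and YY1 (AAGATGGC), read on both strands from 250 bases before to 50 after each RefSeq start (GRCm38.p6). For 69 members with 75 windows, the ETS motif was in 34.7% of windows, NRF1 in 17.3% and YY1 in 16%, and at least one of them in 57.3%. These are the members with a RefSeq window and not the same 69 as in the platelet table. They include 42 members called higher and 19 not called higher in platelets. In windows of genes tested in platelets the shares were 16.2%, 9.32%, 4.17% and 26.4% in that order, and in all promoters 8.86%, 4.6%, 2.75% and 14.7%. Median GC content was 58.7% in member windows, 60% in windows of genes tested in platelets and 52.7% in all promoters. The median CpG count was 21, 19 and 7 in that order. The part of base composition in the motif shares was not tested. Matches of different motifs did not overlap in any member window. Of 59 matches, 51 lay between 100 bases before and 50 after the start. At least one motif was in 50% of 48 windows of members called higher in platelets and in 68.4% of 19 windows of members not called higher. A match is a description of letters, not a bound site.

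**Figure D5:**
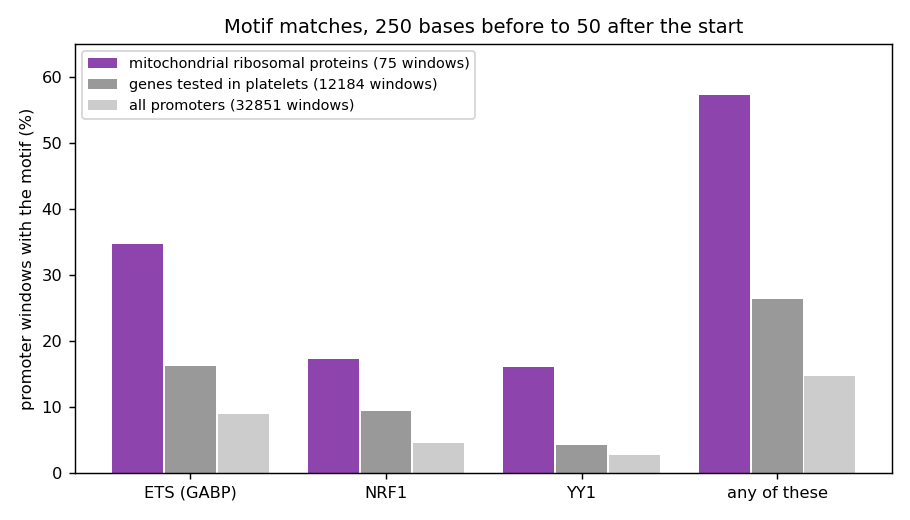
Share of promoter windows with each motif, in percent, for the mitochondrial ribosomal protein genes (75 windows), genes tested in platelets (12184 windows) and all promoters (32851 windows). The members' bar is the tallest for each motif, at 57.3% for any of the 3, against 26.4% and 14.7%.

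The 150 bases before the RefSeq start are printed for 6 members called higher in platelets, to show where the matches sit, 5′ to 3′ on the gene's strand with matches on either strand in capitals. Mrpl45 (chr11:97315566-97315715, plus strand) has a pair of NRF1 matches. Mrpl17 (chr7:105811088-105811237, minus strand), Mrpl12 (chr11:120484487-120484636, plus strand) and Mrpl9 (chr3:94443186-94443335, plus strand) have 1 NRF1 match each. Mrpl52 (chr14:54426759-54426908, plus strand) and Mrpl3 (chr9:105053118-105053267, plus strand) have an ETS match each. Other transcripts in the annotation start earlier in Mrpl17, Mrpl12, Mrpl9 and Mrpl3, so 12, 24, 18 and 29 of the bases shown are exonic there. Mrpl9, Mrpl52 and Mrpl3 were chosen after their values were seen.
Mrpl45: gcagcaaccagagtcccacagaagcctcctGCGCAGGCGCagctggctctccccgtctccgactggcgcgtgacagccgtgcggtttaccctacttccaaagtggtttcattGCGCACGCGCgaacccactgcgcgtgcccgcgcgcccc
Mrpl17: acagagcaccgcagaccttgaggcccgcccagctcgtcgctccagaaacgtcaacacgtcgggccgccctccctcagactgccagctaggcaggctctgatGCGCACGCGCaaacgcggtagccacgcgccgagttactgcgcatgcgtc
Mrpl12: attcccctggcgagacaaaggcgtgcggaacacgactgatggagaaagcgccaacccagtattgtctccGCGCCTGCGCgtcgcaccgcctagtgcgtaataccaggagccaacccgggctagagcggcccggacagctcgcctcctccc
Mrpl9: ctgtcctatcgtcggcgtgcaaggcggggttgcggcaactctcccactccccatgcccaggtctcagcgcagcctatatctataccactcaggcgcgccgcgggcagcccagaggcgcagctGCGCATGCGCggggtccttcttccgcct
Mrpl52: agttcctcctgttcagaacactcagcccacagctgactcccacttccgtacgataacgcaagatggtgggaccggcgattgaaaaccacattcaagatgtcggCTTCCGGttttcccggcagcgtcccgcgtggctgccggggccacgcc
Mrpl3: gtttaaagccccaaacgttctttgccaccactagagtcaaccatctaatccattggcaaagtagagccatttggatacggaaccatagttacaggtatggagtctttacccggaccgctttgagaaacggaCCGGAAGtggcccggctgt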

How the data were processed

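Per the submitters' processing notes, the build was mm10, and the tools, named without roles, included STAR, featureCounts, DESeq2 and edgeR. Per the labels' protocols, megakaryocyte RNA (pooled cells) went into stranded total RNA libraries for Illumina sequencing, and 10 ng of platelet RNA into an amplicon panel for Ion Proton sequencing. Per the file headers, the authors' 5 megakaryocyte tables hold edgeR log2 fold changes, mean log2 CPM, an F score and p-values. The authors' deposited platelet table holds a DESeq2 signal (mean count over size factors), log2 fold changes with SE, a test score and p-values. The lowest mean log2 CPM in the deposited megakaryocyte tables was 4.23.

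Ensembl IDs were matched to symbols in a reference table of gene names (9300 of 9326 matched). Genes were called at the authors' deposited adjusted p under 0.05. The SE in megakaryocytes was computed by dividing the absolute log2 fold change by the square root of F. For single comparisons it is given where F is above 0.5. The interaction test used these SEs at any F, including unstable ones near an F of 0. The interaction test was run on simulated data first. That simulation used only genes with F above 0.5 in both gates, so it does not cover the unstable SEs. Named genes were those called, up to 12 per direction, or otherwise the 6 with the smallest p, with the structural groups and the Mrps18 paralogues. The members and lists were chosen with earlier results of these data known, and motif letters and the split by bacterial counterpart after the files were seen. Alternatives were a stricter threshold, centring, expression filters and a minimum fold. Computation used Python 3.11.15, pandas 2.3.3, scipy 1.17.1 and matplotlib 3.10.9.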

Additional observations from a re-analysis of the deposited data

How the results depend on the processing

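Of 38 alternatives over 7 counts of members called, 28 stayed within 1.5 times the count and 10 did not. Some of the 28 could not have moved. Where the deposited count was 0, a stricter threshold or a minimum fold can only return 0. The minimum of 0.5 was also below the size of every deposited call, so it could drop none. The 28 are therefore no measure of how stable the counts are. The platelet count, 51, lay between 37 and 51 under all its alternatives (37 among genes at or above the median signal, with 46 members tested). At an adjusted p under 0.01 the ploidy count was 0 in knockout and 0 in control megakaryocytes, and among genes at or above the median expression (10 members) it was 0 in control cells. Centred on the median gene with the SE from each gene's own F, the count was 2 higher in each ploidy step (Mrps12 and Mrpl58 in knockout cells, Mrps12 and Mrpl36 in control cells), 2 lower for genotype in 16N-plus cells (Mrpl14, Mrps11) and 2 lower for genotype combined (Mrpl2, Mrps21). In 7 of these 8 calls the deposited log2 fold change lay between -0.0029 and 0.0038, so the SE computed from it was between 0.0056 and 0.0326; Mrps21 was at -0.02 (SE 0.02). After those calls were seen, the SE of genes with F at or under 0.5 was replaced by their median SE over the single comparisons, which leaves 61 members. The count was then 0 in both ploidy steps, 0 for genotype in 16N-plus cells and 1 combined (Mrps21, lower). The median over all genes was -0.11 in the control ploidy step and between -0.05 and 0.07 in the other megakaryocyte comparisons. No paired analysis was possible because no values per library were used here, and for the same reason no replicate could be left out. Depth per library is unknown, and members of low platelet signal had the larger SE.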
